A study of Arabidopsis thaliana with 12 samples.

Results

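A set of 51 probe sets, of 22746 tested, gave lower signals with salt in leaves of 3 Arabidopsis thaliana genotypes. They were chosen by their log2 signals on Affymetrix arrays. In Ws, Col and Col(gl) alike, the mean of the salted arrays had to lie at least 0.6 log2 units below that of the unsalted arrays, and the unsalted Col mean had to reach 6. The rule also left out by name the defensin PDF1.2, plastid-encoded genes, and genes whose symbols mark several large families. Among the members, 25 are listed with a single gene and 26 with none, so the rule's list of names could not be applied to those 26. Of 54 probe sets past the salt threshold in all 3 genotypes (0.237% of those tested), PDF1.2, the plastid gene rpl36 and AT2G42900, whose unsalted Col mean was 5.49, were not kept.

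Plants grew in soil. Salted plants were watered and sprayed with NaCl brought up in steps to 100 mM in a diluted nutrient solution, and unsalted plants received that solution with 0 mM NaCl. Leaf RNA was taken 20 days after sowing, 6 days into the treatment. The 6 groups were salted Ws, unsalted Ws, salted Col, unsalted Col, salted Col(gl) and unsalted Col(gl), each with 2 arrays that the study calls biological replicates. Ws and Col are the common short forms of Wassilewskija and Columbia, while the labels do not say how Col(gl) differs from Col or how many plants went into an array, and the 4 Col arrays were also deposited in another series.

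Salt in the soil lowers the water that roots can take up and loads leaves with sodium and chloride, and leaf growth slows within days. Defensins are small secreted antimicrobial peptides under jasmonate and ethylene control. Pectin-cleaving enzymes, ascorbate oxidases and class III peroxidases work in the cell wall, whose polysaccharides TRICHOME BIREFRINGENCE-LIKE (TBL) proteins acetylate on their way out of the Golgi.

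All values below are log2 signals, on which a difference of 1 is 2-fold. A salt difference is the salted minus the unsalted mean of 2 arrays, with its standard error (SE) from a limma fit over all 12 arrays. Since these differences chose the members, they are described without a test. In bulk leaf RNA, fewer cells of a type and less RNA per cell cannot be told apart.

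Replicate 1 of salted Ws and replicate 1 of salted Col stood apart from the rest. The median signal of 69 plastid-encoded probe sets was 8.73 on salted Ws replicate 1, 9.48 on salted Col replicate 1, 10.34 and 10.345 on the unsalted Col(gl) arrays, and 11.2 to 11.8 on the other 8 arrays. The gap between the 3' and 5' actin control probe sets, which widens as RNA degrades, was 3.70 on salted Ws replicate 1 and 3.68 on salted Col replicate 1, and at most 2.69 on the others. The part of the lower plastid signal of unsalted Col(gl) in that group's member levels was not tested. Median salt differences and membership without these 2 salted replicate 1 arrays are given further on, with values for some named members.

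The members' salt differences had a median of -0.98 in Ws, -1.61 in Col and -0.83 in Col(gl), beside -0.03, -0.13 and -0.02 over all probe sets. They ranged over -2.99 to -0.60 in Ws, -4.57 to -0.62 in Col and -2.80 to -0.60 in Col(gl). Col had the deepest of the 3 differences in 41 members, Ws in 8 and Col(gl) in 2, and the shallowest was that of Col(gl) in 35. At or below the threshold lay 6.06% of all probe sets in Ws, 12.3% in Col and 1.77% in Col(gl), so the genotypes' spreads of salt differences were themselves unequal. A difference of at least 2-fold was seen in 24 members in Ws, 46 in Col and 17 in Col(gl), and 11 members reached it in all 3. Both salted arrays lay below both unsalted arrays in every genotype for all 51 members, as in 8.58% of all probe sets, a separation that the rule favours.

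**Figure D1:**
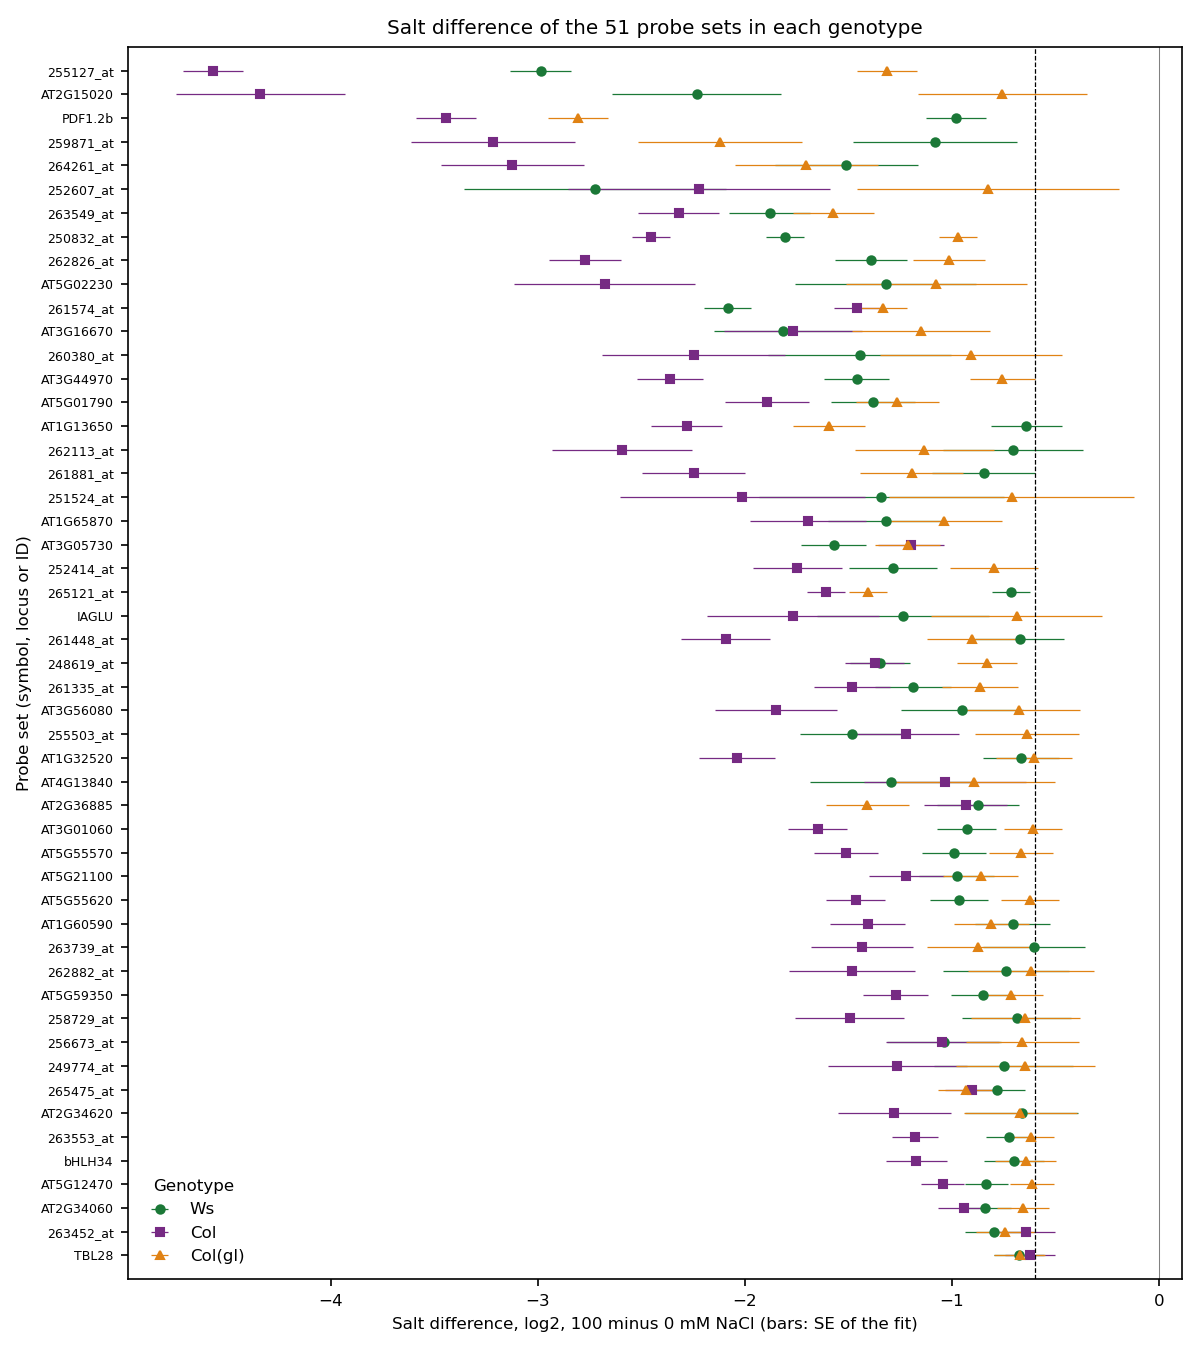
Salt difference (x axis, log2, 100 minus 0 mM NaCl) of each of the 51 probe sets (y axis) in Ws, Col and Col(gl), with bars for the SE of the fit and a dashed line at the threshold of -0.6. Col symbols lie farthest left for 41 probe sets, and the deepest Col value is -4.57.

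Among the defence peptides, PDF1.2b (AT2G26020), a plant defensin, had the deepest salt difference in Col(gl) of all members. It read 8.90 and 8.54 in salted Ws against 9.85 and 9.55 in unsalted Ws. In Col it read 7.41 and 7.21 with salt against 10.76 and 10.74 without, and in Col(gl) 7.93 and 7.94 with salt against 10.77 and 10.71 without. The unsalted arrays of Col and Col(gl) were thus close together, while Ws was lower without salt and higher with it. The differences were -0.98 ± 0.15 in Ws, -3.44 ± 0.15 in Col and -2.80 ± 0.15 in Col(gl) (SE, n = 2 arrays per group). The type of its probe set can also take up RNA of near-identical defensins, PDF1.2 among them, so PDF1.2b is an uncertain name for this signal. PDF1.2, left out by the rule, had differences of -1.16, -3.73 and -3.18 in the same genotypes.

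AT3G05730, a defensin-like protein, read 9.59 and 9.06 in salted Ws against 10.91 and 10.88 in unsalted Ws, and 10.17 and 9.97 in salted Col against 11.30 and 11.23 in unsalted Col. Its Col(gl) signals were 9.84 and 9.90 with salt against 11.09 and 11.08 without. Its 3 differences, -1.57, -1.20 and -1.21 (each ± 0.16), were close to one another, and Ws had the deepest.

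Proteins of the cell wall and apoplast are grouped here for description only. AT3G16670, of the pollen Ole e 1 and extensin family, was among the brightest members. Its signals were 9.07 and 10.38 in salted Ws against 11.54 and 11.54 in unsalted Ws, 9.40 and 9.84 in salted Col against 11.29 and 11.48 in unsalted Col, and 10.15 and 10.18 in salted Col(gl) against 11.32 and 11.29 in unsalted Col(gl). The 6 unsalted arrays were close to one another, and the 2 salted Ws arrays were far apart. The differences were -1.82 in Ws, -1.77 in Col and -1.15 in Col(gl), each ± 0.33.

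AT1G65870, a dirigent-like protein of the kind that steers coupling of phenols in the wall, read 6.50 and 7.38 in salted Ws against 8.20 and 8.31 in unsalted Ws. In Col it read 5.62 and 5.87 with salt against 7.61 and 7.28 without, and in Col(gl) 4.62 and 5.18 with salt against 6.09 and 5.79 without. Its differences were -1.32, -1.69 and -1.04 (each ± 0.28), and at either salt level Ws was highest and Col(gl) lowest.

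AT1G60590, a pectin lyase-like protein, had the widest gap between genotypes of all members. It read 8.93 and 8.86 in salted Ws against 9.55 and 9.65 in unsalted Ws, and 7.94 and 7.67 in salted Col against 9.31 and 9.10 in unsalted Col. In Col(gl) it read 4.06 and 4.60 with salt against 5.26 and 5.02 without. The signal of 4.06 lay under that array's lower quartile of 4.28 and is not shown to be above background. The Col(gl) difference of -0.81 ± 0.18 is thus uncertain in size, and without that array AT1G60590 left the set. The Ws and Col differences were -0.71 and -1.41.

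AT5G21100, an ascorbate oxidase, had salt differences of -0.98 in Ws, -1.22 in Col and -0.86 in Col(gl) (each ± 0.18). AT2G34060, a class III peroxidase, had -0.84, -0.94 and -0.65 (each ± 0.13). TBL28 (AT2G40150) had the shallowest Col difference of all members, -0.62, beside -0.68 in Ws and -0.67 in Col(gl) (each ± 0.12). For these 3 genes the salt differences of the genotypes lay closer together than those of PDF1.2b.

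**Figure D2:**
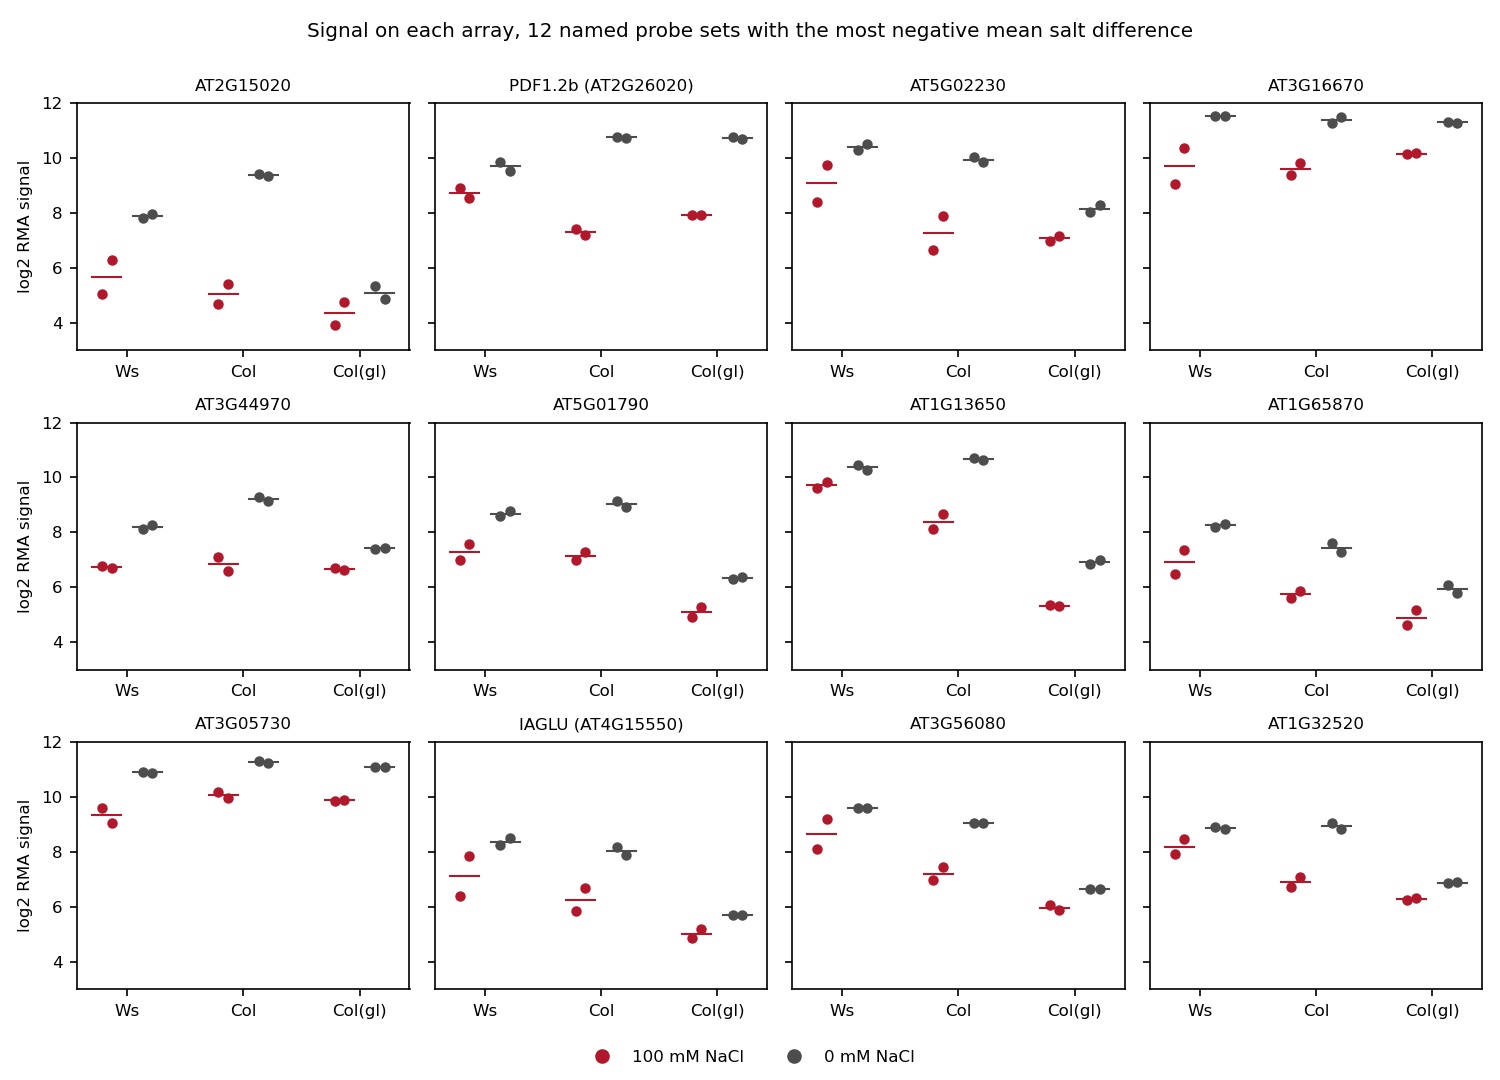
Log2 signal (y axis) on each of the 12 arrays for the 12 named members with the most negative mean salt difference, salted (100 mM) left of unsalted (0 mM) within each genotype, with points for arrays and a line at each group mean. In each panel both salted arrays lie below both unsalted arrays of the same genotype, and the lowest point is 3.92 for AT2G15020 in salted Col(gl).

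Another group holds enzymes of small-molecule, hormone and lipid metabolism. AT3G44970, a cytochrome P450, read 6.79 and 6.71 in salted Ws against 8.14 and 8.28 in unsalted Ws, and 7.12 and 6.59 in salted Col against 9.29 and 9.14 in unsalted Col. Col(gl) arrays gave 6.70 and 6.63 with salt against 7.39 and 7.45 without. Salted levels of the 3 genotypes were close, and the differences, -1.46, -2.36 and -0.76 (each ± 0.16), followed the unsalted levels. The rule's exclusion of this enzyme family goes by symbol, and AT3G44970 has none here. The same holds for IAGLU, a glucosyltransferase whose symbol does not begin with the family's stem.

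IAGLU (AT4G15550), which transfers glucose to the auxin indole-3-acetic acid, read 6.41 and 7.85 in salted Ws against 8.23 and 8.50 in unsalted Ws. It read 5.83 and 6.70 in salted Col against 8.18 and 7.88 in unsalted Col, and 4.85 and 5.19 in salted Col(gl) against 5.71 and 5.71 in unsalted Col(gl). The salted Ws and Col arrays were spread widely, with replicate 1 the lower in both. Its differences were -1.24, -1.77 and -0.69, each ± 0.41.

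AT3G56080, a predicted methyltransferase, read 8.09 and 9.20 in salted Ws against 9.59 and 9.59 in unsalted Ws, 6.97 and 7.45 in salted Col against 9.05 and 9.05 in unsalted Col, and 6.06 and 5.87 in salted Col(gl) against 6.64 and 6.64 in unsalted Col(gl). Col had the deepest difference, -1.85, beside -0.95 in Ws and -0.67 in Col(gl) (each ± 0.29). AT4G13840, known as CER26, which acts in the elongation of leaf wax precursors, had salt differences of -1.29 in Ws, -1.03 in Col and -0.89 in Col(gl) (each ± 0.39).

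AT5G02230, a hydrolase of the haloacid dehalogenase type, read 8.41 and 9.75 in salted Ws against 10.30 and 10.50 in unsalted Ws. In Col it read 6.66 and 7.88 with salt against 10.03 and 9.86 without, and in Col(gl) 6.99 and 7.17 with salt against 8.03 and 8.28 without. Its differences were -1.32, -2.68 and -1.07, each ± 0.44, the widest SE among the named members. The 2 salted arrays of Ws, and likewise those of Col, were more than 1 log2 unit apart.

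Among regulators and organelle proteins, bHLH34 (AT3G23210), a transcription factor of the iron-deficiency response, had salt differences of -0.70 in Ws, -1.17 in Col and -0.64 in Col(gl) (each ± 0.15). AT2G34620, of the mTERF family that acts on organelle gene expression, had -0.66, -1.28 and -0.67 (each ± 0.27). AT5G12470, a RETICULATA-related plastid protein, had -0.83, -1.04 and -0.61 (each ± 0.10).

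Of the genes to which no role is given here, AT2G15020 had the deepest differences of any named member in Ws and Col. It read 5.05 and 6.28 in salted Ws against 7.84 and 7.96 in unsalted Ws, 4.68 and 5.40 in salted Col against 9.40 and 9.36 in unsalted Col, and 3.92 and 4.78 in salted Col(gl) against 5.35 and 4.87 in unsalted Col(gl). The differences were -2.23 in Ws, -4.34 in Col and -0.76 in Col(gl), each ± 0.41. The Col(gl) groups nearly touched, at 4.78 with salt against 4.87 without, and 1 salted Col(gl) array lay under its lower quartile of 4.28. That difference too is thus uncertain in size, and without that array AT2G15020 left the set.

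AT1G13650 read 9.61 and 9.84 in salted Ws against 10.47 and 10.27 in unsalted Ws, and 8.12 and 8.67 in salted Col against 10.71 and 10.65 in unsalted Col. In Col(gl) it read 5.34 and 5.31 with salt against 6.85 and 7.0 without. Unsalted Col(gl) thus lay below salted Col and salted Ws. Its differences were -0.64, -2.28 and -1.59 (each ± 0.17).

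AT5G01790 had Col(gl) signals of 4.91 and 5.27 with salt against 6.32 and 6.38 without. Its Ws signals were 7.0 and 7.59 with salt against 8.59 and 8.76 without, and its Col signals 7.0 and 7.28 with salt against 9.14 and 8.92 without. Its differences, -1.38, -1.89 and -1.26 (each ± 0.20), were closer together than its levels. AT1G32520 read 7.92 and 8.46 in salted Ws against 8.90 and 8.82 in unsalted Ws, 6.71 and 7.08 in salted Col against 9.05 and 8.82 in unsalted Col, and 6.25 and 6.31 in salted Col(gl) against 6.86 and 6.91 in unsalted Col(gl). Its difference of -2.04 in Col stood beside -0.67 in Ws and -0.60 in Col(gl) (each ± 0.18), the last at the edge of the rule.

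AT2G36885 was the only named member whose deepest difference was in Col(gl), -1.41, beside -0.87 in Ws and -0.93 in Col (each ± 0.20). The remaining named members, AT3G01060, AT5G55570, AT5G55620 and AT5G59350, had salt differences of -0.99 to -0.85 in Ws, -1.65 to -1.27 in Col and -0.72 to -0.61 in Col(gl).

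The 26 members with no listed gene ran from -2.99 to -0.60 in Ws, from -4.57 to -0.64 in Col and from -2.12 to -0.62 in Col(gl), with medians of -1.13, -1.68 and -0.89. The deepest by the mean of the 3 differences, 255127_at, was picked out here for its values. It read 6.18 and 6.64 in salted Ws against 9.34 and 9.45 in unsalted Ws, 5.60 and 5.56 in salted Col against 10.22 and 10.07 in unsalted Col, and 6.27 and 6.16 in salted Col(gl) against 7.52 and 7.53 in unsalted Col(gl). Its salted means were 6.41 in Ws, 5.58 in Col and 6.21 in Col(gl), against 9.39, 10.15 and 7.53 without salt. Ws minus Col was 0.83 with salt and -0.75 without, and unsalted Col(gl) lay below both other unsalted groups.

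The threshold fell within a continuous range of values. Just inside lay 263739_at (-0.60 in Ws, -1.43 in Col, -0.87 in Col(gl)), AT1G32520 and AT3G01060 (-0.93, -1.65 and -0.61). Just outside lay AT1G01250 (-0.597 in Ws and -0.598 in Col(gl)), SNZ (-0.599 and -0.595) and AT3G52740 (-0.594 in Col(gl)).

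The named members were spread over the genome. Chromosomes 1 to 5 held 4, 6, 6, 2 and 7 of the 25, beside 25.5%, 16.3%, 20.3%, 14.5% and 22.3% of all single-gene probe sets. The closest pair, AT5G55570 and AT5G55620, had 5 annotated genes between them.

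The median level of the 51 was 8.82 in salted Ws against 9.70 in unsalted Ws, 7.43 in salted Col against 9.70 in unsalted Col, and 6.56 in salted Col(gl) against 7.53 in unsalted Col(gl). Salted Col(gl) was the lowest of the 6 groups for 42 members, salted Col for 7 and salted Ws for 2, beside 16.0%, 30.3% and 11.6% of all probe sets. The rule itself makes a salted group the lowest and an unsalted group the highest, so these counts are a description. The highest group was unsalted Col for 26 members, unsalted Ws for 24 and unsalted Col(gl) for 1. The floor on unsalted Col favours the first of these, and the shares over all probe sets were not determined. In 25 members the unsalted Col(gl) mean was at or below the salted Col mean, a share near that of all probe sets, 42.9%.

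**Figure D3:**
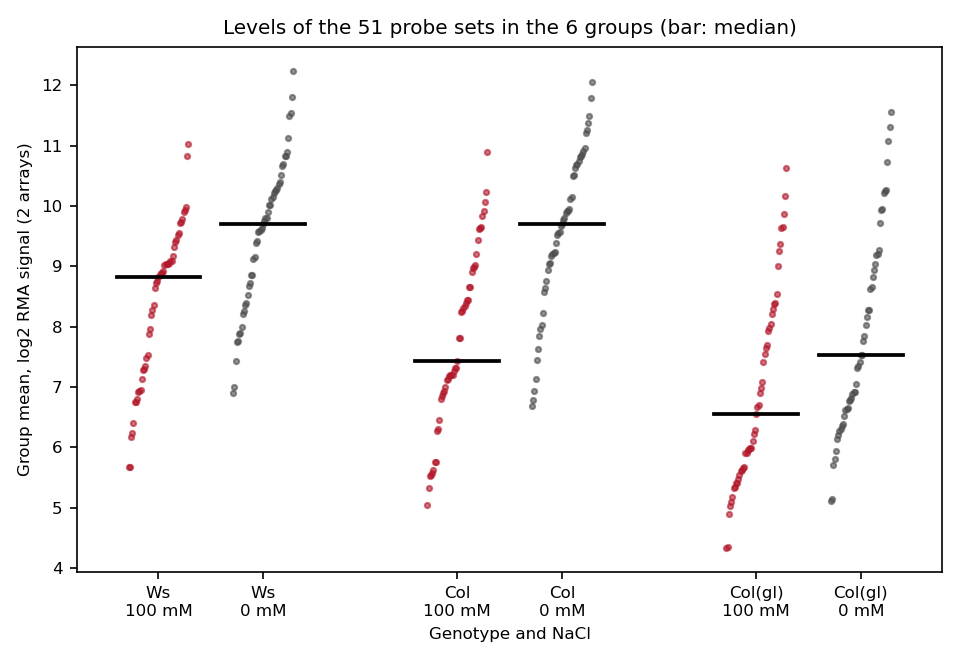
Group mean log2 signal (y axis) of each of the 51 probe sets in the 6 groups (x axis), in rising order within a group, with the median as a bar. The median in unsalted Col(gl), 7.53, is near that of salted Col, 7.43, and below that of unsalted Col, 9.70.

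To set the genotypes against each other, each probe set's mean over both salt levels was compared between them. Where salt differences are unlike between genotypes, the gap in this mean depends on them too. The tests came from limma with Benjamini-Hochberg adjustment over all probe sets, and an adjusted p under 0.05 was called. Beside the salt differences, the rule uses the floor on unsalted Col, which favours members that are high in Col. Col(gl) was lower than Col in 40 of the 51 members and higher in 1, and 10 were not called, while 28.3% of all probe sets were called, 16.1% lower and 12.3% higher. The median Col(gl) minus Col difference was -1.25 over members and -0.00 over all probe sets. At 100 mM alone the members' median was -0.81 and at 0 mM -1.68, beside 0.04 and -0.04 over all probe sets. In 29 of the 40 the gap was at least 2-fold, and the 40 ran from -3.77 to -0.29.

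AT1G60590 had the widest gap, -3.77 ± 0.13 log2 units for Col(gl) minus Col (SE; limma adjusted p = 1.9e-07). On salted Col(gl) replicate 1, AT1G60590 and AT2G15020 lay under the lower quartile, so the gaps of both genes to Col(gl) are uncertain in size. AT1G13650 differed by -3.41 ± 0.12 (adjusted p = 2e-07) and AT5G01790 by -2.37 ± 0.14 (adjusted p = 2.2e-06). AT2G15020 (-2.48 ± 0.29, adjusted p = 0.00014), bHLH34 (-1.89 ± 0.10, adjusted p = 1.2e-06) and AT3G56080 (-1.83 ± 0.21, adjusted p = 0.00012) were also lower in Col(gl). For these 6 genes every Col(gl) array at a given salt level read below every Col array at that level, except that 1 salted Col(gl) array of AT2G15020, at 4.78, was above the lower salted Col array, at 4.68. The auxin enzyme IAGLU differed by -1.78 ± 0.29 (adjusted p = 0.0013), the dirigent-like AT1G65870 by -1.18 ± 0.20 (adjusted p = 0.0016) and the ascorbate oxidase AT5G21100 by -1.20 ± 0.13 (adjusted p = 7.6e-05).

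An unnamed probe set, 252414_at, read 5.37 and 5.43 in salted Col(gl) and 6.24 and 6.15 in unsalted Col(gl), against 7.55 and 8.06 in salted Col and 9.69 and 9.41 in unsalted Col, a difference of -2.88 ± 0.15 (limma adjusted p = 9.9e-07). The sole member higher in Col(gl) was 261574_at, by 0.59 ± 0.08 (adjusted p = 0.00042), which read 5.93 and 6.03 in salted Col(gl) and 7.38 and 7.24 in unsalted Col(gl), against 5.28 and 5.38 in salted Col and 6.86 and 6.71 in unsalted Col. Its 4 Col(gl) arrays were each above the Col arrays of the same salt level. With the replicate block, after quantile renormalization or with only the genotypes compared, 2 members were called higher in Col(gl).

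The defence peptides and some wall genes were not called between Col(gl) and Col. PDF1.2b differed by 0.31 ± 0.10 (limma adjusted p = 0.052), AT3G05730 by -0.19 ± 0.11 (adjusted p = 0.26) and AT3G16670 by 0.24 ± 0.24 (adjusted p = 0.53). AT4G13840 (-0.44 ± 0.28, adjusted p = 0.29), AT2G36885 (-0.20 ± 0.14, adjusted p = 0.36), AT2G34060 (0.06 ± 0.09, adjusted p = 0.66) and 4 unnamed members made up the rest. AT5G02230 was called lower in Col(gl) (-0.99 ± 0.31, adjusted p = 0.038), but the call was lost in 11 of 18 alternative settings. TBL28 (-0.30 ± 0.09, adjusted p = 0.026) lost its call in 7, and the mTERF gene AT2G34620 (-0.68 ± 0.19, adjusted p = 0.024) in 6.

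For comparison, 866 probe sets met the same floor and the same threshold in Ws and Col but not in Col(gl). Of these, 344 (39.7%) were called lower in Col(gl) than in Col, with a median difference of -0.24, while the corresponding figures for the 51 members were 78.4% and -1.25. The 2 sets were split by their Col(gl) salt difference, and the salted Col(gl) arrays also enter the average compared. The 2 shares are thus a description, and whether they differ was not tested.

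Ws and Col differed less. In Ws 19 members were higher than in Col, 5 were lower and 27 were not called, with a median difference of 0.26 (0.03 over all probe sets), while 21.8% of all probe sets were called, 12.6% higher and 9.2% lower. AT5G55570 stood far from the rest at 2.87 ± 0.11 (limma adjusted p = 1.9e-07). It read 8.60 and 8.92 in salted Ws and 9.70 and 9.79 in unsalted Ws, against 5.56 and 5.69 in salted Col and 7.12 and 7.16 in unsalted Col, and its Col(gl) signals of 5.34 and 5.61 with salt and 5.98 and 6.30 without lay below those of Col in the average over salt (Col(gl) minus Col -0.57 ± 0.11, limma adjusted p = 0.0031). Salted Ws was thus above unsalted Col for this gene.

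The dirigent-like AT1G65870 (1.00 ± 0.20, limma adjusted p = 0.0059), AT3G56080 (0.99 ± 0.21, adjusted p = 0.0081), AT2G34620 (0.88 ± 0.19, adjusted p = 0.0096) and AT1G60590 (0.74 ± 0.13, adjusted p = 0.0029) were higher in Ws. So was 262826_at (1.05 ± 0.12, adjusted p = 0.00027), at 8.55 and 9.16 in salted Ws and 10.19 and 10.30 in unsalted Ws, against 7.14 and 7.09 in salted Col and 9.92 and 9.85 in unsalted Col. TBL28 (0.47 ± 0.09, adjusted p = 0.004) and AT1G13650 (0.51 ± 0.12, adjusted p = 0.015, lost without unsalted Ws replicate 1 and without unsalted Col replicate 2) were higher by less. For AT1G13650, Ws minus Col was 1.33 with salt and -0.31 without, so Ws was the higher with salt alone. The called members AT1G32520 (1.3 with salt, -0.08 without) and 261881_at (1.34 and -0.06) also had negative gaps without salt. The other members called higher in Ws had positive gaps at both levels. AT5G02230 was called higher in Ws (1.14 ± 0.31, adjusted p = 0.026), a call lost in 6 of 18 alternative settings, as was that of AT5G21100 (0.48 ± 0.13, adjusted p = 0.024). The call of AT5G59350 (0.36 ± 0.11, adjusted p = 0.045) was lost in 12, and that of AT2G34060 (0.36 ± 0.09, adjusted p = 0.017) in 4.

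AT3G44970 and AT3G05730, by contrast, were lower in Ws than in Col, each at -0.56 ± 0.11 (limma adjusted p = 0.0063 for AT3G44970 and 0.0061 for AT3G05730). Among unnamed members, 249774_at was lower at -1.67 ± 0.24 (adjusted p = 0.00091) and 261335_at at -0.62 ± 0.13 (adjusted p = 0.0077). The array values of 249774_at were 8.31 and 9.33 in salted Ws and 9.62 and 9.52 in unsalted Ws, against 9.75 and 10.71 in salted Col and 11.49 and 11.49 in unsalted Col. Those of 261335_at were 8.27 and 7.66 in salted Ws and 9.10 and 9.20 in unsalted Ws, against 8.55 and 8.33 in salted Col and 9.82 and 10.03 in unsalted Col.

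Set against Col(gl), Ws was higher in 41 members and lower in 1, and 9 were not called, with a median of 1.56 (0.02 over all probe sets), while 41.1% of all probe sets were called, 25.8% higher and 15.3% lower. AT1G60590 was higher in Ws by 4.51 ± 0.13 (limma adjusted p = 9.3e-09) and AT1G13650 by 3.92 ± 0.12 (adjusted p = 1.5e-08). The probe set 252414_at, at 8.71 and 9.32 in salted Ws and 10.25 and 10.35 in unsalted Ws, was higher by 3.86 ± 0.15 (adjusted p = 6e-08). The one lower member was AT3G05730 (-0.37 ± 0.11, adjusted p = 0.024), whose call was lost in 6 of 18 alternative settings. AT4G13840 (0.83 ± 0.28, adjusted p = 0.036) was called higher in Ws and lost its call in 10, and AT2G34060 (0.30 ± 0.09, adjusted p = 0.022) in 6. In all, 38 members were lower in Col(gl) than in both Col and Ws, as were 13.0% of all probe sets. The comparisons with Col(gl) share its arrays, so their counts are not independent of each other.

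**Figure D4:**
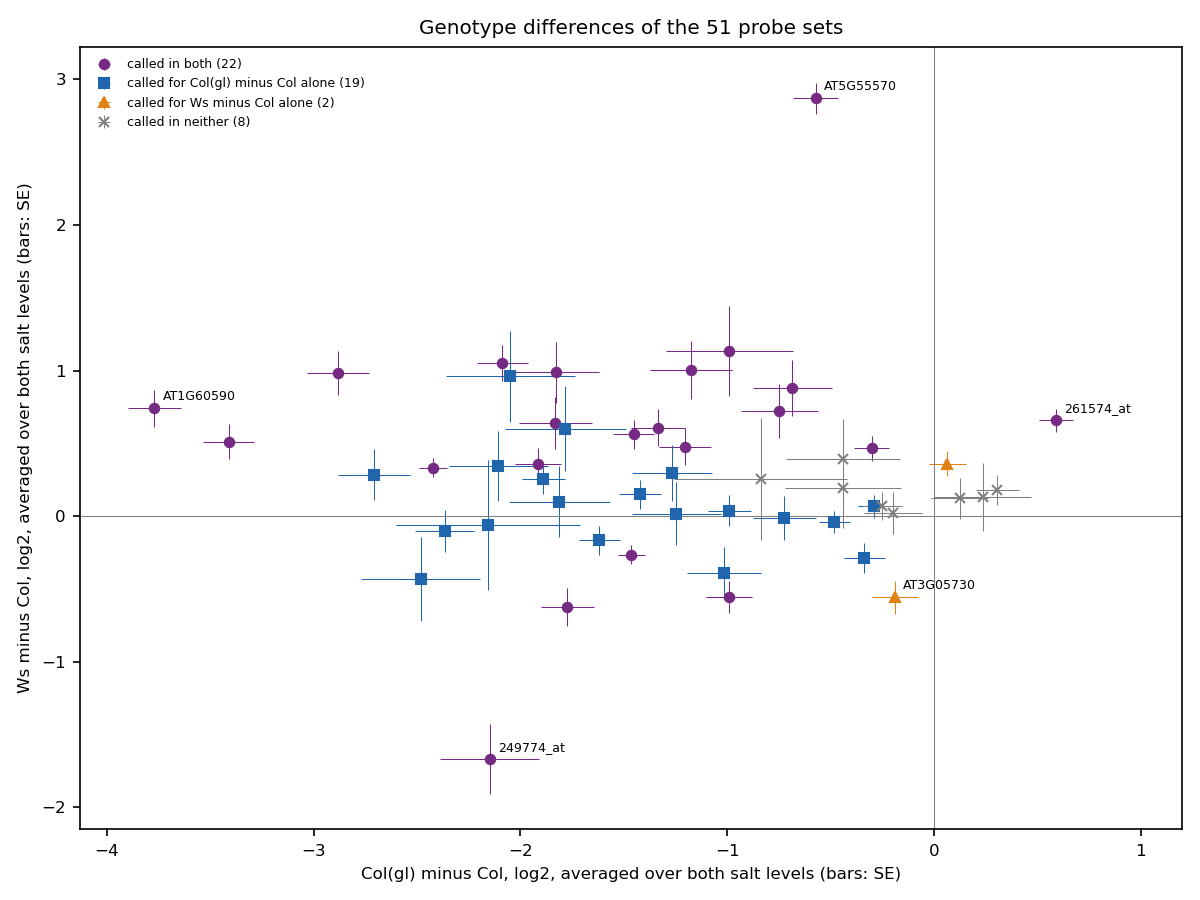
Genotype differences averaged over both salt levels (log2) for the 51 probe sets, with Col(gl) minus Col on the x axis, Ws minus Col on the y axis, and bars for the SE. Symbols mark the 22 members called in both, 19 for Col(gl) minus Col alone, 2 for Ws minus Col alone and 8 in neither, and most lie left of 0, down to -3.77 for AT1G60590.

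Replicate 1 minus replicate 2 had a median of -0.54 over the members in salted Ws (0.01 over all probe sets), with a range of -2.69 to 0.61. In salted Col the median was -0.24 (0.03 over all probe sets), with a range of -1.68 to 0.99. In the other 4 groups the members' median lay between -0.08 and 0.07. Members lower in replicate 1 numbered 39 of 51 in salted Ws, where 47.9% of all probe sets were lower in it, and 34 in salted Col, where 45.3% were. The count was 35 in unsalted Ws (56.5% of all probe sets) and 35 in salted Col(gl) (54.0%), so this count does not set salted Col apart. The median size of the members' differences was 0.58 in salted Ws (0.19 over all probe sets), 0.28 in salted Col (0.18) and 0.08 to 0.14 in the other 4 groups. The fit takes the spread of a probe set as equal in all groups, so the SEs given do not show this inequality.

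Without replicate 1 of salted Ws and of salted Col, the 2 arrays that stood apart in plastid-encoded and actin signals, 36 of the 51 members stayed within the rule, and median salt differences were -0.74 in Ws, -1.54 in Col and -0.83 in Col(gl). The 6 named genes that then left the set, IAGLU, AT3G56080, AT4G13840, AT1G13650, AT1G32520 and AT2G34620, did so through Ws, where their differences became -0.51, -0.39, -0.51, -0.52, -0.39 and -0.42. The same 6 left without replicate 1 of salted Ws alone. Among named members that stayed without both arrays, the Ws difference became -0.65 in AT5G02230, -1.16 in AT3G16670, -0.88 in AT1G65870 and -1.62 in AT2G15020. It became deeper in PDF1.2b (-1.16), AT3G05730 (-1.84), AT3G44970, AT2G34060, AT5G12470, bHLH34, TBL28 and AT1G60590, and shallower in the other named members that stayed. Without replicate 1 of salted Col(gl) alone, 37 of the 51 stayed within the rule, and 10 named genes left it, AT1G32520, AT1G60590, AT2G15020, AT3G01060, AT5G55570, AT5G55620, AT5G59350, IAGLU, TBL28 and bHLH34. What part the state of salted Ws and Col replicate 1 has in the members' values was not tested.

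**Figure D5:**
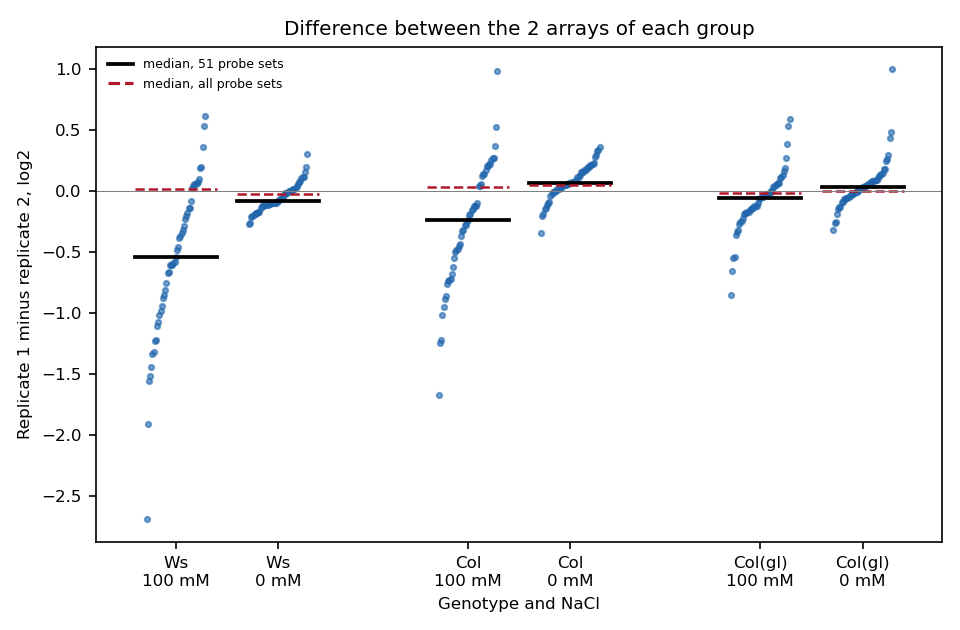
Replicate 1 minus replicate 2 (log2) for each of the 51 probe sets in the 6 groups, with the members' median as a solid bar and that of all probe sets as a dashed bar. The members' median is -0.54 in salted Ws and -0.24 in salted Col, and within 0.08 of 0 elsewhere.

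Array medians lay between 6.15 and 6.38 and lower quartiles between 4.19 and 4.42. Of the leaf mesophyll markers, only RCA, the activase of Rubisco, was measured under a name (1 of 6), and it was bright in all groups, at 13.98 in salted Ws against 14.04 in unsalted Ws, 13.75 in salted Col against 13.98 in unsalted Col, and 13.62 in salted Col(gl) against 13.81 in unsalted Col(gl). PYK10, a beta-glucosidase abundant in roots, read 6.73 and 3.61 in salted Ws against 3.51 and 3.65 in unsalted Ws (limma adjusted p = 0.27), and 9.99 and 7.73 in salted Col against 4.0 and 3.76 in unsalted Col (adjusted p = 0.0023). In both salted groups the higher array was replicate 1, one of the 2 arrays that stood apart, and its part in the members' values was not tested. In Col(gl) it read 3.80 and 3.73 with salt against 3.76 and 3.75 without. The root hair gene EXPA7, with group means of 4.26 to 4.82, was called lower with salt in Col (-0.47 ± 0.15, adjusted p = 0.036) and differed by -0.44 in Ws (adjusted p = 0.079) and -0.24 in Col(gl) (adjusted p = 0.51). The guard cell regulator FAMA lay between 6.75 and 7.18.

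The trichome regulator TRY was 1 of 2 trichome markers and the one measured. It is no member, as its salt difference in Col(gl) was -0.06 ± 0.16 (limma adjusted p = 0.92). Its mean was 7.09 in salted Ws against 8.49 in unsalted Ws, 6.11 in salted Col against 8.21 in unsalted Col, and 4.80 in salted Col(gl) against 4.86 in unsalted Col(gl). It was lower with salt in Ws and Col and low in Col(gl) at both levels. Its part in the members' values was not tested.

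Other genes of pathways near the members were read from 8 lists of 109 genes, chosen with earlier results of these data known. In 5 of the lists, 12 genes that are no members were measured under a name, and the nitrate, aquaporin and cell cycle lists had 0. For these genes the salt differences were tested with limma, in which 16.6% of all probe sets were called in Ws, 37.5% in Col and 1.49% in Col(gl). Sulfur assimilation gave 4 measured genes of 20. In Ws 1 was higher and 0 lower, in Col 1 higher and 1 lower, and in Col(gl) 0 higher and 3 lower, with medians of 0.29, -0.04 and -0.76.

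SDI2 (AT1G04770), a repressor of glucosinolate synthesis when sulfur is short, read 9.94 and 10.47 in salted Ws against 8.66 and 8.75 in unsalted Ws, 9.95 and 9.91 in salted Col against 8.17 and 8.05 in unsalted Col, and 5.83 and 6.12 in salted Col(gl) against 8.19 and 8.13 in unsalted Col(gl). It was higher with salt in Ws (limma adjusted p = 0.00041) and in Col (1.81 ± 0.17, adjusted p = 5.8e-05) and lower in Col(gl) (-2.18 ± 0.17, adjusted p = 0.00048). SIR, sulfite reductase, was lower in Col (-0.67 ± 0.11, adjusted p = 0.0017) and in Col(gl) (-0.88 ± 0.11, adjusted p = 0.0073), and read -0.05 in Ws (adjusted p = 0.81). APS3, an ATP sulfurylase, was called lower in Col(gl) (-0.65 ± 0.13, adjusted p = 0.045; 0.064 with replicate number as a block). The Col(gl) calls of APS3 and SIR were lost without any 1 of the 4 Col(gl) arrays, at adjusted p-values of 0.19 to 0.3 and 0.071 to 0.11. SIR and SDI2 had opposite signs in Col, so the list did not move one way there.

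Of nuclear photosynthesis genes 3 of 18 were measured, and PORB, which makes chlorophyllide in light, was the called one, higher in Ws (1.13 ± 0.10, limma adjusted p = 0.00011) and in Col (1.27 ± 0.10, adjusted p = 2.2e-05) and at -0.20 in Col(gl) (adjusted p = 0.4). Of cytokinin response regulators 2 of 10 were measured, of which ARR15 was lower in Ws (-0.96 ± 0.17, adjusted p = 0.0053; 0.053 without unsalted Ws replicate 1) and ARR16 in Col (-0.67 ± 0.13, adjusted p = 0.003). BCAT4, which starts methionine chain elongation for glucosinolates and was the 1 measured gene of 15, was lower in Col (-0.82 ± 0.13, adjusted p = 0.0012). Of the jasmonate and defence list, the 2 measured genes that are no members were not called in any genotype. Of the 12 measured list genes that are no members, none was called lower in all 3 genotypes. Genes at least 0.6 log2 units lower in all 3 are mostly members by the rule and so fall outside this count. PDF1.2b, a member, is on the jasmonate and defence list and is not counted here.

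Families sharing a symbol stem with members were looked up after the values were seen. Over all probe sets 16.6% were called in Ws, 37.5% in Col and 1.49% in Col(gl). Of 21 other TBL probe sets, 1 was lower and 3 higher in Ws, 7 were lower and 3 higher in Col, and 0 were called in Col(gl), with medians of -0.10, -0.20 and -0.05. Of 6 other PDF probe sets, 1 was lower in Ws, 2 in Col and 1 in Col(gl), and 1 was higher in each of Ws and Col. PDF1.2, left out of the members by name, shares this stem, and the PDF1.2b probe set may also take up its RNA. Of 4 other BHLH probe sets, 1 was higher in Col and the rest were not called in any genotype, with medians of -0.20, -0.12 and 0.06.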

How the data were processed

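Leaf RNA of 3 genotypes at 100 and 0 mM NaCl was hybridised to 12 Affymetrix arrays, 2 per group. The deposited values are log2 signals, made by the authors with GCOS and RMA per the submitters' processing notes, and versions, settings and genome build are not given in the sources used here. They were used without further normalization. Scanner files were not used here, and precision is limited by how few arrays there are. Of 22810 probe sets, 64 controls were left out and 22746 tested. In the platform annotation 13513 of these had 1 gene, 503 several and 8730 none, and only the first are named, through the RefSeq TAIR10.1 gene table.

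Members were taken by group means (threshold -0.6 on each salt difference, floor 6 on unsalted Col). Members and gene lists were chosen with earlier results of these data known. The limma package 3.58.1 (R 4.3.3) fitted 1 coefficient per group to every probe set (lmFit, eBayes; 6 residual and 3.45 prior degrees of freedom), a fit tested on simulated data. Tests are two-sided, with Benjamini-Hochberg adjustment across all 22746 for each comparison, and calls need an adjusted p under 0.05. Salt differences of members carry no test because they chose the members. Genotype differences average both salt levels. Where the labels do not state separate plants, p-values measure only the spread between these arrays.

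All 12 array values are given for the 12 named members with the most negative mean salt difference, plus 255127_at, picked after its values were seen. For the 3 largest called genotype differences per direction, at least the array values of the genotypes compared are given. Genes of the lists are named if called in a salt response. Alternatives were the replicate block, quantile renormalization, leaving out the dimmest 25% of probe sets, an intensity trend with a robust prior, a fit of only the genotypes compared, other thresholds, each array left out in turn, and replicate 1 of salted Ws and Col left out together. A crossed block was added after seeing the data. Tables were drawn up in Python 3.11.15 with pandas 2.3.3 and figures with matplotlib 3.10.9. Promoter motifs were not analysed here.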

Additional observations from a re-analysis of the deposited data

Results flagged for a closer look

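Of the 12 measured list genes that are no members, 8 had salt differences called unlike between genotypes. The tests were limma contrasts of one salt difference minus another, with Benjamini-Hochberg adjustment over all probe sets. The share of all probe sets called in these contrasts was not determined, so the count has no baseline. SDI2 (AT1G04770) gave -4.00 for Col(gl) minus Col (adjusted p = 1.1e-05) and 3.69 for Ws minus Col(gl) (adjusted p = 3.5e-05). PORB gave -1.47 for Col(gl) minus Col (adjusted p = 0.0002) and 1.33 for Ws minus Col(gl) (adjusted p = 0.00073). APS3 gave -0.67 for Col(gl) minus Col (adjusted p = 0.033) and 1.01 for Ws minus Col(gl) (adjusted p = 0.011), and SIR gave 0.83 for Ws minus Col(gl) (adjusted p = 0.017).

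The cytokinin response regulator ARR16 gave 1.08 for Col(gl) minus Col (adjusted p = 0.0039) and -0.79 for Ws minus Col(gl) (adjusted p = 0.032). ARR15 gave -1.27 for Ws minus Col (adjusted p = 0.021) and -1.41 for Ws minus Col(gl) (adjusted p = 0.0097). BCAT4 gave 0.96 for Ws minus Col (adjusted p = 0.02). Each contrast shares arrays with another, and each group has 2 arrays. BGLU28 (AT2G44460), a beta-glucosidase of the sulfur list, gave 0.68 for Col(gl) minus Col (adjusted p = 0.043). It was not called in any single genotype, is named here after its values were seen, and read 4.44 and 4.46 in salted Col(gl) against 3.85 and 3.91 in unsalted Col(gl). On all Ws and Col arrays it read 3.63 to 4.14, under their lower quartiles of 4.19 to 4.42.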

How the results depend on the processing

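The number of members followed the threshold: 109 at -0.5 and 21 at -0.8, against 51 at -0.6. It was 52 with no floor and 76 after quantile renormalization, which held 49 of the 51. With each array left out in turn it ran from 39 (without salted Ws replicate 1) to 66. The total can hide a change of members: without salted Col(gl) replicate 1 it was 50, of which 37 are among the 51, with 15 of the 25 named. Without replicate 1 of salted Ws and of salted Col together it was 41, of which 36 are among the 51.

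Member counts of the genotype differences stayed within 1.5 times under the fits run. For Ws minus Col, 24 were called, 25 with the replicate block, 19 with only the genotypes compared, 16 to 32 with each array left out and 33 without both salted replicate 1 arrays. For Col(gl) minus Col, 41 were called (1 of them higher), 42 with the block (2 higher), 45 with only the genotypes compared and 36 to 46 with each array left out. For Ws minus Col(gl), 42 were called, 43 with the block and 37 to 44 with each array left out. Of 1926 reruns of 107 called differences, 1817 kept the call, 109 lost it and 0 changed direction. The replicate block lost none of the 107.

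For AT5G02230, the Ws minus Col call was lost without either unsalted Ws or Col array or salted Col replicate 1, and the Col(gl) minus Col call without either unsalted Ws or Col array, salted Col replicate 2 or any Col(gl) array. Calls of AT4G13840 and AT3G05730 (Ws minus Col(gl)) were lost without either unsalted Ws array or any Col(gl) array, the first also without either unsalted Col array, and that of AT2G34620 (Col(gl) minus Col) without any unsalted Col or Col(gl) array. Adjusted p-values of AT3G05730 then lay between 0.054 and 0.072. The Ws minus Col call of AT5G59350 was lost without either unsalted Ws array, salted Ws replicate 2, replicate 1 of unsalted or salted Col or any Col(gl) array, and that of AT5G21100 without any unsalted Ws or Col array or salted Col replicate 2. AT2G34060 lost the Ws minus Col call without either unsalted Ws array or unsalted Col replicate 2, and the Ws minus Col(gl) call without either unsalted Ws array, salted Ws replicate 1, unsalted Col(gl) replicate 1 or salted Col(gl) replicate 2. TBL28 lost the Col(gl) minus Col call without unsalted Col replicate 2, salted Col replicate 1, either unsalted Col(gl) array or salted Col(gl) replicate 1. Leaving out replicate 1 of salted Ws and of salted Col together also lost this call of TBL28. It lost the Ws minus Col calls of AT5G59350 and AT2G34060 too.

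List genes called by salt numbered 3 in Ws (2 to 7 with each array left out, 7 without salted Ws replicate 2), 5 in Col (5 to 6, and 6 with the block) and 3 in Col(gl) (1 to 5, and 2 with the block). In Col(gl) the count was 5 with only that genotype's arrays, 6 without both salted replicate 1 arrays and 7 with only its arrays and crossed replicate numbers as a block.

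Same-numbered arrays deviated together with correlations of -0.352 (unsalted with salted Col(gl)) to 0.697 (salted Ws with salted Col), so the numbers were not taken as pairs. Signals near the lower quartile limit AT1G60590 and AT2G15020 in Col(gl). Where 1 array was left out, the lone array of its group was taken to vary as much as the rest. Why calls changed was not tested.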
